A study of Rattus norvegicus with 30 samples.

Results

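The expression of 10 genes that mark T cells was followed in the lungs of rats with acute lung injury induced by severe acute pancreatitis (SAP-ALI): Cd3d, Cd3e, Cd3g, Cd247, Cd2, Cd5, Lck, Cd4, Cd8a and Il7r. The genes were taken by symbol from the deposited tables, where each of the 10 matched 1 row among the 22914 genes counted, and all 10 passed the filter on low counts that left 15934 genes for testing. Lung RNA was sequenced from 30 male Sprague Dawley rats aged 8 weeks, with 3 rats in each of 10 groups whose lungs were taken at 6 or 24 hours after surgery. Surgery only moved the pancreas of Sham rats, whereas Con rats had sterile saline and SAP rats 5.0% sodium taurocholate, an injurious bile salt, run backwards into the biliopancreatic duct. The DEX groups received the same taurocholate infusion and then 10 mg/kg of intravenous dexamethasone, a synthetic glucocorticoid, at 2 and 12 hours. The Emo groups received the infusion and intragastric emodin, an anthraquinone of rhubarb, at 2 and 12 hours, at a dose given as 10 mg/kg in the sample descriptions and as 40 mg/kg in the treatment protocol. Rats of the 6-hour groups had received only the first dose of either drug, and the other rats received saline in place of DEX and 0.5% carboxymethylcellulose sodium in place of emodin. Each library was made from a portion of lung, kept after saline had been flushed through the pulmonary artery, in which lung cells, lymphoid tissue and any remaining blood cells are measured together.

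T cells recognise antigen through a receptor whose variable chains carry no signalling tail of their own. The signal passes through the CD3 gamma, delta and epsilon chains and the zeta chain encoded by Cd247, which the kinase LCK phosphorylates once the coreceptors CD4 or CD8 bring it to the receptor. CD2 is an adhesion molecule, CD5 dampens receptor signalling, and the interleukin 7 receptor alpha chain, encoded by Il7r, sustains resting T cells. Glucocorticoids are known to kill immature T cells, to move circulating lymphocytes out of the blood and to raise Il7r in T cells. In the lung, T cells lie in the tissue, the vessels and the lymphoid tissue around the airways. Several of the genes are shared with other cells: CD247, CD2 and LCK with natural killer cells, CD8A with rat natural killer cells, CD4 with rat macrophages and IL7R with innate lymphoid cells.

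The values used for levels were the deposited FPKM, the fragments of a gene per unit of its length and of sequencing depth, so that levels of different genes can be compared. Over 30 libraries the mean level ran from 0.326 FPKM for Cd5 (ENSRNOG00000020872, chromosome 1) and 0.757 FPKM for Il7r (ENSRNOG00000058446, on the unplaced scaffold KL567908.1) to 12.1 FPKM for Cd4 (ENSRNOG00000016294, chromosome 4). The 3 CD3 genes lie together on chromosome 8 of the rat genome used by the authors, and averaged 8.49 FPKM for Cd3d (ENSRNOG00000015994), 8.61 FPKM for Cd3e (ENSRNOG00000016069) and 11.7 FPKM for Cd3g (ENSRNOG00000015945). Cd247 (ENSRNOG00000003298, chromosome 13) averaged 6.80 FPKM, Cd2 (ENSRNOG00000015821, chromosome 2) 7.04 FPKM, Lck (ENSRNOG00000009705, chromosome 5) 9.91 FPKM and Cd8a (ENSRNOG00000007178, chromosome 4) 10.3 FPKM. Cd5 rested on 1 to 84 reads per library and Il7r on 9 to 67, so their values are the least precise, whereas each of the other 8 genes had at least 26 reads in every library.

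Because most of these genes moved together, their promoters are shown for 4 of them that differ in role: a receptor chain, a receptor that dampens signalling, an adhesion molecule and the kinase. RefSeq windows of 300 bases (250 before the start site, 50 after, build GRCr8) were found for 9 of the 10 genes, as 10 windows with 2 for Lck. The lines give the 150 bases just before the outermost start site, on the strand of the gene, which is the minus strand in all 4, with matches to ETS or RUNX motif letters in capitals.
Cd3e, chr8:54211771-54211920: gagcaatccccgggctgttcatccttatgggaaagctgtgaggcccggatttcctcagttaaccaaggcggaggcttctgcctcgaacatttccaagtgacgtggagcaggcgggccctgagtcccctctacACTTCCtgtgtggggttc
Cd5, chr1:216811210-216811359: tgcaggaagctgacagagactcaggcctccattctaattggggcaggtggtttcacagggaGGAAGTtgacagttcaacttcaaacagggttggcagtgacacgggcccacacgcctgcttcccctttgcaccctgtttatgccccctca
Cd2, chr2:191412660-191412809: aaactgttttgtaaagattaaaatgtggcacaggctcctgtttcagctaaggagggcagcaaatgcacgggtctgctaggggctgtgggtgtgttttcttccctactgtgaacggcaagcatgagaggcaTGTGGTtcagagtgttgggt
Lck, chr5:147201268-147201417: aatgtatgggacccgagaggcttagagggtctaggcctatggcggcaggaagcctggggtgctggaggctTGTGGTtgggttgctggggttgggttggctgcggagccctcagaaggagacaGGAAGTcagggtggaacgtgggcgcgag

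The capitals mark GGAAGT, the core bound by ETS factors (ACTTCC when it lies on the other strand), and TGTGGT, the core bound by RUNX factors. Searched on both strands of the whole windows, GGAAGT was present in 7 of the 10 windows (Cd247, Cd3d, Cd3e, Cd5, Il7r and both of Lck), against 22.6% of all 33469 RefSeq windows of that length. TGTGGT was present in 3 (Cd2, Il7r and Lck), against 17.3%, and CTTTGA, the TCF core, in 2 (Cd247 and Cd3d), against 16.1%. The GATA core, AGATAA, was present in none of the 10 windows, against 11.6% of all. The TATA box letters TATAAA were also absent from them, against 14.2% of all windows with a match. The same held for CAGATG, an E-box, which 16.6% of all windows contain. No match of one motif overlapped a match of another in the 10 windows, and the matches are a description of these windows.

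Libraries held 16813949 to 34692306 reads on genes, of which 850 to 7072 fell on the 10 T cell genes. In the authors' mapping summary, every SAP, DEX and Emo library had a lower share of uniquely mapped reads than every Sham and Con library. The taurocholate infusion coincided with this difference, whose part in the comparisons with Sham or Con was not tested. Replicate libraries differed by far more than counting noise, with a chi-square of 37.4 to 208 per degree of freedom in the 30 pairs. The label lung was matched by its markers in every library: surfactant gene Sftpc stood at 12733.2 FPKM or more and the alveolar type 1 gene Ager at 367.94 FPKM or more. Of 6 genes of developing thymocytes, 5 were low, with at most 25 reads for Rag1, 9 for Rag2, 37 for Dntt, 42 for Ptcra and 14 for Themis. The sixth, Cd1d1, which other cells also express, had 4.30 to 12.26 FPKM. Genes of lymph node stroma varied widely, from 20.66 to 291.41 FPKM for Ccl21 and from 0.15 to 66.7 FPKM for Glycam1.

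**Figure D1:**
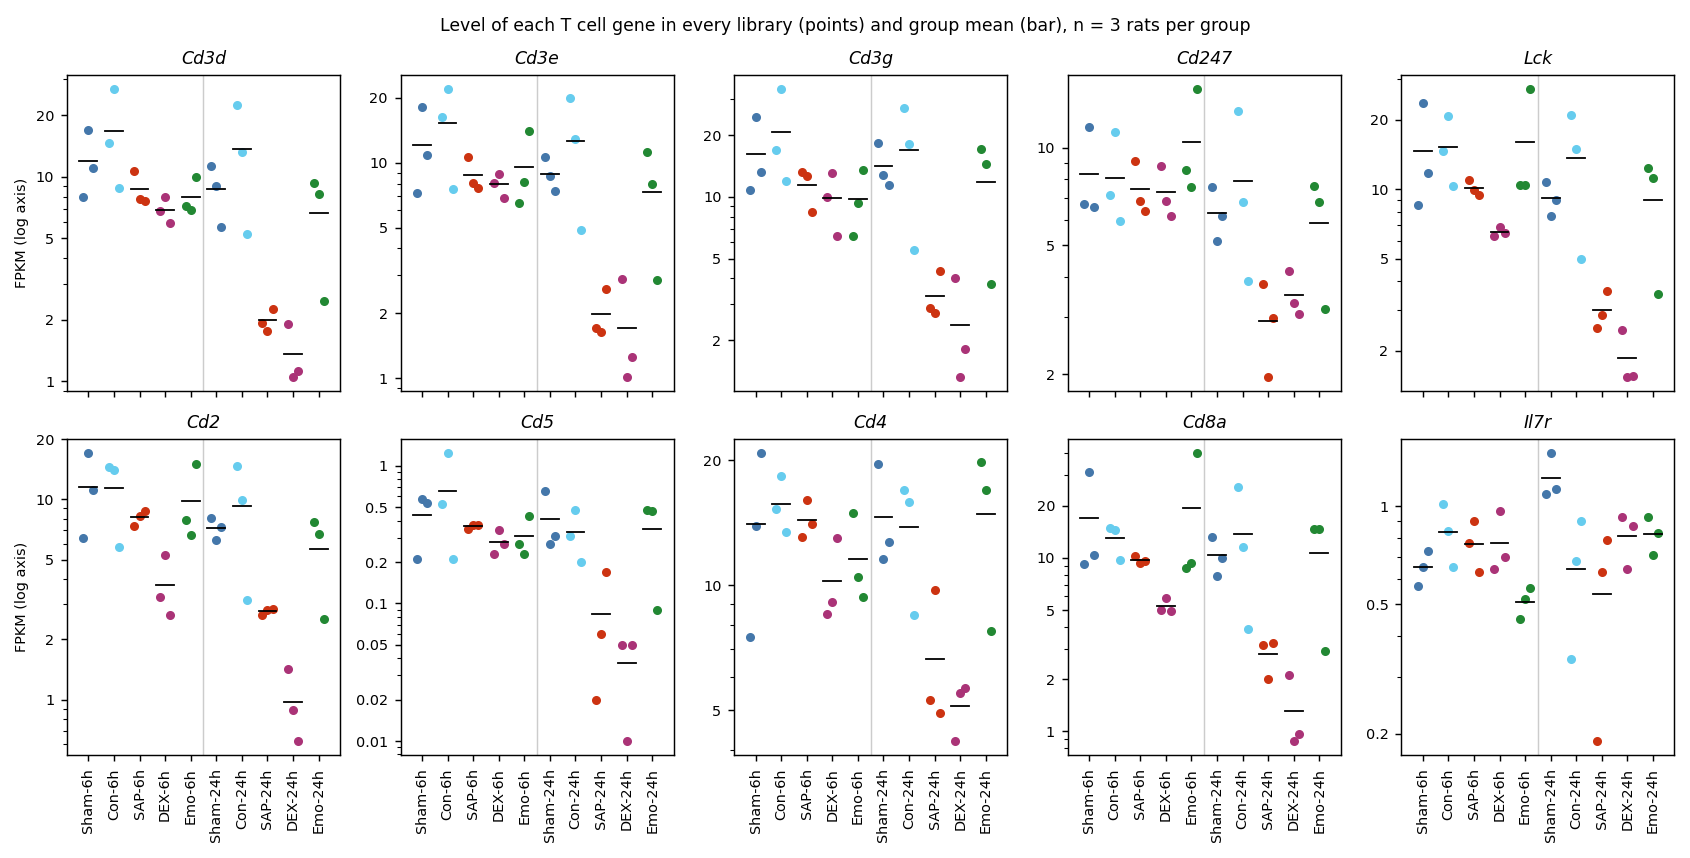
Level of each T cell gene in 30 lung libraries. Each panel is 1 gene, with FPKM on a log scale on the vertical axis. Each point is 1 rat and each bar is the mean of 3 rats. For the CD3 genes the 3 rats of SAP-24h and of DEX-24h lie at the bottom, at 1.01 to 2.87 FPKM for Cd3e. A single Emo-24h rat lies among them for Cd3e (2.84 FPKM) and Cd3g (3.75 FPKM). In the panel for Il7r both groups overlap with others, and 1 SAP-24h rat is lowest, at 0.19 FPKM.

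The levels of the T cell genes were lowest at 24 hours in the injured lungs, untreated or treated with DEX. By mean FPKM, DEX-24h was the lowest of the 10 groups for 8 genes, SAP-24h was the lowest for Cd247 and Emo-6h for Il7r. SAP-24h was among the 2 lowest groups for all 10 genes and DEX-24h for 9. The order of the 10 groups was otherwise loose. Of their 9 neighbouring pairs, only 3 lay further apart than the larger of their 2 SDs for Cd8a, and 2 for Cd2, Cd3d and Lck. It was 1 pair for Cd3e, Cd3g, Cd4, Cd5 and Il7r and 0 for Cd247. Every such pair of Cd3d, Cd3e, Cd3g, Cd4, Cd5 and Lck included SAP-24h or DEX-24h.

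Cd3e, the epsilon chain found in every T cell receptor complex, shows the pattern. Its values were 10.58, 8.68 and 7.41 FPKM in Sham-24h, 20.03, 12.92 and 4.86 in Con-24h, 1.71, 1.63 and 2.58 in SAP-24h, 2.87, 1.01 and 1.25 in DEX-24h, and 11.20, 7.93 and 2.84 in Emo-24h. All 3 rats of SAP-24h were below every Sham-24h and Con-24h rat, and the DEX-24h rats overlapped with them. Of the Emo-24h rats, 2 were within the range of the control groups and the third was at the level of the highest DEX-24h rat. At 6 hours Cd3e was 7.22, 18.15 and 10.88 FPKM in Sham-6h, 16.32, 22.01 and 7.52 in Con-6h, 10.58, 8.04 and 7.60 in SAP-6h, 8.05, 8.87 and 6.88 in DEX-6h, and 6.51, 8.13 and 14.02 in Emo-6h. All 5 groups overlapped at 6 hours, and the values over 14 FPKM were those of 1 rat each in Sham-6h and Emo-6h and of 2 in Con-6h.

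Cd3d and Cd3g, the delta and gamma chains, followed Cd3e. Cd3d was 11.37, 9.03 and 5.68 FPKM in Sham-24h, 1.93, 1.76 and 2.27 in SAP-24h, 1.90, 1.05 and 1.13 in DEX-24h, and 9.35, 8.23 and 2.48 in Emo-24h. Cd3g was 18.24, 12.82 and 11.46 FPKM in Sham-24h, 2.86, 2.71 and 4.33 in SAP-24h, 4.02, 1.32 and 1.80 in DEX-24h, and 17.08, 14.46 and 3.75 in Emo-24h. For both genes the SAP-24h and DEX-24h rats lay below all Sham-24h rats, and the lowest Emo-24h rat was again the third. Across the 30 libraries the 3 genes rose and fell together, with Pearson r of log2(FPKM + 1) between 0.969 and 0.983, and between 0.944 and 0.957 for deviations from the group means. These correlations are a description, since the libraries share groups and the genes share libraries.

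Cd247, the zeta chain, moved less than the other receptor chains. It was 7.57, 5.14 and 6.14 FPKM in Sham-24h, 3.81, 1.96 and 2.99 in SAP-24h, 4.17, 3.31 and 3.06 in DEX-24h, and 7.61, 6.80 and 3.18 in Emo-24h. SAP-24h and DEX-24h again lay below Sham-24h, but by a smaller step. Lck, the kinase that starts receptor signalling, was 10.72, 7.67 and 9.0 FPKM in Sham-24h, 2.52, 2.85 and 3.64 in SAP-24h, 2.47, 1.54 and 1.55 in DEX-24h, and 12.35, 11.18 and 3.51 in Emo-24h. For Lck all DEX-24h rats were below all SAP-24h rats.

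Cd2, the adhesion receptor, differed most between SAP-24h and DEX-24h. It was 8.03, 6.29 and 7.28 FPKM in Sham-24h, 2.64, 2.79 and 2.83 in SAP-24h, 1.42, 0.89 and 0.62 in DEX-24h, and 7.68, 6.71 and 2.51 in Emo-24h. The SAP-24h rats were below all Sham-24h rats. All DEX-24h rats were below all SAP-24h rats for 2 of the 10 genes, Cd2 and Lck. The share of all genes for which this held was not counted. Cd5, the inhibitory receptor, was low everywhere, at 0.66, 0.27 and 0.31 FPKM in Sham-24h, 0.02, 0.06 and 0.17 in SAP-24h, 0.05, 0.01 and 0.05 in DEX-24h, and 0.48, 0.47 and 0.09 in Emo-24h.

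The coreceptors Cd4 and Cd8a split T cells into helper and cytotoxic cells. Cd4 was 19.61, 11.59 and 12.69 FPKM in Sham-24h, 5.28, 9.73 and 4.92 in SAP-24h, 4.21, 5.49 and 5.66 in DEX-24h, and 19.84, 16.99 and 7.74 in Emo-24h. Cd8a was 13.16, 7.85 and 9.98 FPKM in Sham-24h, 3.17, 2.00 and 3.25 in SAP-24h, 2.11, 0.88 and 0.97 in DEX-24h, and 14.60, 14.75 and 2.89 in Emo-24h. Both were lower in every SAP-24h and DEX-24h rat than in any Sham-24h rat. The highest Cd8a values were those of single rats at 6 hours, 40.28 FPKM in Emo-6h replicate 3 and 31.23 FPKM in Sham-6h replicate 2, whose group mates had 8.78 to 10.34 FPKM.

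Il7r went its own way. It was 1.09, 1.46 and 1.13 FPKM in Sham-24h, 0.34, 0.68 and 0.90 in Con-24h, 0.19, 0.63 and 0.79 in SAP-24h, 0.93, 0.64 and 0.87 in DEX-24h, and 0.93, 0.71 and 0.83 in Emo-24h. All Sham-24h rats were above the rats of the other groups at 24 hours, and Con-24h, SAP-24h, DEX-24h and Emo-24h overlapped. Across 30 libraries its r with the other 9 genes ran from -0.147 to 0.246, whereas the other 9 correlated with each other at 0.602 to 0.983 (median 0.872).

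The saline-infused rats at 24 hours spread more than the sham-operated ones. Con-24h replicates 1, 2 and 3 had 22.59, 13.28 and 5.28 FPKM of Cd3d, 27.04, 18.01 and 5.53 of Cd3g and 20.96, 14.90 and 5.0 of Lck. They had 14.74, 9.89 and 3.14 FPKM of Cd2, 25.52, 11.61 and 3.87 of Cd8a, 12.98, 6.78 and 3.89 of Cd247 and 16.98, 15.91 and 8.48 of Cd4. Replicate 1 was the highest and replicate 3 the lowest for all these genes, and replicate 3 was still above every SAP-24h rat for all of them but Cd4.

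At 6 hours all DEX-6h rats were below all SAP-6h rats in FPKM for 5 genes (Cd2, Cd5, Lck, Cd4 and Cd8a), which held for 8.74% of all genes tested, and below all Sham-6h rats for 4 (Cd3d, Cd2, Lck and Cd8a), which held for 16.2%. For Il7r all Emo-6h rats, at 0.45 to 0.56 FPKM, were below all other rats at 6 hours, the lowest of which had 0.57. This rested on 20 to 26 reads per Emo-6h library, and the share of all genes was not counted. In counts scaled for depth, Emo-6h and Sham-6h overlapped. Cd3d ran from 5.94 FPKM in a DEX-6h rat to 26.93 in a Con-6h rat, Cd3g from 6.41 in Emo-6h to 33.62 in Con-6h, and Lck from 6.29 in DEX-6h to 27.19 in Emo-6h. Cd247 ran from 5.94 FPKM in Con-6h to 15.18 in Emo-6h, Cd4 from 7.51 to 20.83 within Sham-6h, Cd5 from 0.21 to 1.24 within Con-6h and Il7r from 0.45 in Emo-6h to 1.02 in Con-6h. Group means of Lck were 6.55 ± 0.31 FPKM in DEX-6h (SD, n = 3), 10.1 ± 0.79 in SAP-6h and 14.7 to 16.0 in Sham-6h, Con-6h and Emo-6h. Group means of Cd8a were 5.27 ± 0.51 FPKM in DEX-6h, 9.74 ± 0.49 in SAP-6h and 13.1 to 19.5 in the other 3 groups, where the SD reached 18.0. By mean FPKM, DEX-6h was the lowest group at 6 hours for all genes but Cd3g and Il7r, for which Emo-6h was.

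The first comparison asked how lungs of SAP rats differed from those of control rats at 24 hours. A gene was called a DEG (differentially expressed gene) when edgeR's quasi-likelihood test gave a p under 0.05 after Benjamini-Hochberg adjustment over the 15934 genes and the groups differed at least 2-fold. In SAP-24h vs Sham-24h, 6 of the 10 T cell genes were down-regulated, against 3.01% of all genes tested, and none was up-regulated, against 1.98%. In these whole lung samples, fewer T cells and less RNA per T cell cannot be told apart. Cd3e had a log2 fold change of -2.04 ± 0.51 (SE) (adjusted p = 0.0127), Cd3d of -2.00 ± 0.48 (0.0101) and Cd3g of -1.98 ± 0.55 (0.0223), a change of 3.93- to 4.12-fold. Cd5 had a log2 fold change of -2.14 ± 0.66 (0.0357), Lck of -1.48 ± 0.47 (0.0399) and Il7r of -1.09 ± 0.36 (0.0463). The log2 fold changes of the other 4 did not pass: -1.74 ± 0.64 for Cd8a (0.0740), -1.25 ± 0.48 for Cd2 (0.0863), -1.01 ± 0.34 for Cd4 (0.0556) and -0.96 ± 0.38 for Cd247 (0.100). The median log2 fold change of the 10 was -1.61, beside -0.03 for all genes. In FPKM, all 10 had every SAP-24h rat below every Sham-24h rat, which held for 21.8% of all genes tested.

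The number of calls rested on single rats. It was 1 without SAP-24h replicate 1, 3 without SAP-24h replicate 2, 2 without Sham-24h replicate 1 and 3 without Sham-24h replicate 2, and it was 0 when only these 6 libraries were fitted, with adjusted p values of 0.0536 to 0.249.

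Against the saline-infused rats, SAP-24h vs Con-24h, 8 of the 10 were down-regulated, against 3.26% of all genes. Cd3d had a log2 fold change of -2.67 ± 0.49 (edgeR, adjusted p = 0.00102), Cd3e of -2.56 ± 0.52 (0.00185), Cd3g of -2.24 ± 0.55 (0.00654) and Lck of -2.07 ± 0.47 (0.00406). Cd8a had a log2 fold change of -2.16 ± 0.65 (0.0199), Cd5 of -1.84 ± 0.67 (0.0498), Cd2 of -1.63 ± 0.48 (0.0192) and Cd247 of -1.30 ± 0.39 (0.0189). Cd4 had -0.94 ± 0.34 (0.0533), and Il7r had -0.15 ± 0.36 (0.805), a sign that turned without Con-24h replicate 3 or SAP-24h replicate 1. The comparisons with Sham-24h and with Con-24h share the SAP-24h rats. The count was 4 without Con-24h replicate 1, 5 without SAP-24h replicate 1 and 0 in a fit of these 6 libraries alone, where Con-24h rats spread from 4.86 to 20.03 FPKM for Cd3e.

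The control groups were set against each other next. In Sham-24h vs Con-24h edgeR called 0 of 10, against 1% of all genes; 1 gene had an unadjusted p under 0.05, and DESeq2 and limma also called 0. That gene was Il7r, with a log2 fold change of 0.93 (adjusted p = 0.0905), and it was called once Con-24h replicate 3 was left out.

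The second comparison followed the time course. In SAP-24h vs SAP-6h, 3 genes were down-regulated, against 1.74% of all genes. Cd3e had a log2 fold change of -2.06 ± 0.51 (edgeR, adjusted p = 0.0209), Cd3d of -2.04 ± 0.48 (0.0158) and Lck of -1.66 ± 0.47 (0.0381). The other 7 had log2 fold changes of -1.99 (Cd5) to -0.45 (Il7r), with adjusted p values of 0.0544 to 0.455. In FPKM, Cd2 was 7.33, 8.22 and 8.79 in SAP-6h and Lck 10.96, 9.90 and 9.42, each above all SAP-24h rats. The count was 1 without SAP-24h replicate 1 and 0 without SAP-6h replicate 1, whereas DESeq2 called 8.

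In the control groups 0 T cell genes changed with time by edgeR, DESeq2 or limma. This held in Sham-24h vs Sham-6h, against 0.257% of all genes, where Il7r alone had an unadjusted p under 0.05 (log2 fold change 0.94, adjusted p = 0.135), and in Con-24h vs Con-6h, against 0.00628%, where no gene had. Whether the effect of SAP differed between the time points was tested as an interaction. No T cell gene passed, against 0.0314% of all genes. An unadjusted p under 0.05 was found for 5 T cell genes and for 2003 of the 15934 genes tested. The smallest adjusted p values of T cell genes were 0.251 for Il7r (difference of log2 fold changes -1.39) and 0.308 for Cd3d (-1.60). DESeq2 and limma also called 0 T cell genes.

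**Figure D2:**
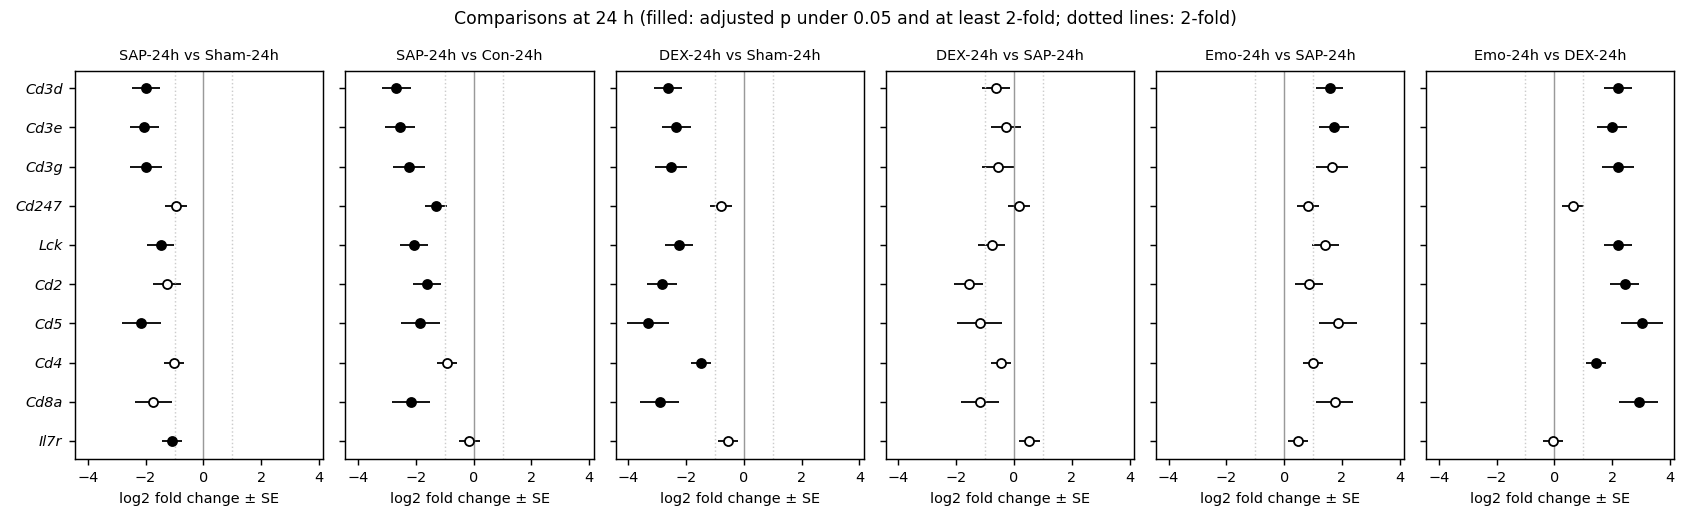
Log2 fold changes of the T cell genes at 24 hours, with bars of 1 SE (edgeR, 3 rats per group). Filled points mark genes called at an adjusted p under 0.05 and 2-fold: 6 in SAP-24h vs Sham-24h, 8 in SAP-24h vs Con-24h, 8 in DEX-24h vs Sham-24h, 0 in DEX-24h vs SAP-24h, 2 in Emo-24h vs SAP-24h and 8 in Emo-24h vs DEX-24h.

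The T cell genes were also low in DEX-treated lungs at 24 hours. In DEX-24h vs Sham-24h, 8 of 10 were down-regulated, against 3.16% of all genes, with a median log2 fold change of -2.42 beside -0.01 for all genes. Cd5 had a log2 fold change of -3.32 ± 0.72 (edgeR, adjusted p = 0.00606), Cd8a of -2.91 ± 0.68 (0.00995), Cd2 of -2.82 ± 0.52 (0.00177) and Cd3d of -2.62 ± 0.49 (0.00214). Cd3g had a log2 fold change of -2.52 ± 0.56 (0.00758), Cd3e of -2.33 ± 0.51 (0.00685), Lck of -2.25 ± 0.48 (0.00549) and Cd4 of -1.47 ± 0.35 (0.0110). Cd247 had -0.79 ± 0.38 (0.246) and Il7r -0.56 ± 0.35 (0.413). For all 10 genes the DEX-24h rats lay below all Sham-24h rats in FPKM, as did 15.9% of all genes. The count was 5 without DEX-24h replicate 3.

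Set directly against the untreated injured lungs, DEX-24h vs SAP-24h, 0 of 10 genes were called by edgeR, against 3.73% of all genes. Cd2 came closest, with a log2 fold change of -1.57 ± 0.51 and an adjusted p of 0.0598; it was the 1 gene with an unadjusted p under 0.05. DESeq2 called 1 gene and limma 0. The median was -0.58, and Il7r (0.53) and Cd247 (0.17) had positive values, the latter turning negative without SAP-24h replicate 2. A difference between DEX-24h and SAP-24h was thus not detectable by edgeR for any of the 10 genes at 3 rats per group.

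Over time in the DEX-treated rats, DEX-24h vs DEX-6h, 8 of 10 were down-regulated, against 3.91% of all genes. Cd5 had a log2 fold change of -2.79 ± 0.73 (edgeR, adjusted p = 0.00751), Cd3d of -2.32 ± 0.49 (0.00188), Cd3e of -2.19 ± 0.51 (0.00380) and Cd3g of -2.03 ± 0.56 (0.0104). Cd8a had a log2 fold change of -1.97 ± 0.66 (0.0315), Cd2 of -1.91 ± 0.51 (0.00891), Lck of -1.80 ± 0.48 (0.00835) and Cd247 of -1.04 ± 0.38 (0.0477). Cd4 had -0.97 ± 0.35 (0.0413), short of 2-fold, and Il7r 0.09 ± 0.35 (0.875). The count was 5 without DEX-24h replicate 2.

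At 6 hours, after 1 dose of DEX, 1 gene was down-regulated. In DEX-6h vs Sham-6h it was Cd2, with a log2 fold change of -1.58 ± 0.48 (edgeR, adjusted p = 0.0384), 1 of 10 against 1.73% of all genes. Cd2 was 3.26, 5.25 and 2.64 FPKM in DEX-6h, 6.42, 17.04 and 11.17 in Sham-6h and 7.33, 8.22 and 8.79 in SAP-6h. All DEX-6h rats were below all rats of those other groups. The call was lost without any of DEX-6h replicates 1 and 3 or Sham-6h replicates 2 and 3, each of which left a count of 0. Cd8a (-1.63, adjusted p = 0.103) and Lck (-1.11, 0.127) had the next smallest adjusted p values.

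The remaining comparisons at 6 hours gave 0 calls by edgeR and limma. DEX-6h vs SAP-6h had 1 T cell gene with an unadjusted p under 0.05, Cd2 (log2 fold change -1.12, adjusted p = 0.318). Of the 15934 genes tested, 1927 had such a p there, and 0.515% were called by edgeR. In Emo-6h vs DEX-6h, 2761 of the 15934 genes tested had such a p, and 1.41% were called by edgeR. T cell genes with such a p were 3 there, among them Cd8a (1.89, 0.109) and Cd2 (1.40, 0.115), and DESeq2 called 2. SAP-6h vs Sham-6h (0.220% of all genes called), SAP-6h vs Con-6h (0.163%), Sham-6h vs Con-6h (0%), Emo-6h vs SAP-6h (0.0251%) and Emo-6h vs Sham-6h (0.477%) had none, and DESeq2 called 0 there. The largest value among these was that of Cd8a in Emo-6h vs SAP-6h, 1.00 on the log2 scale, which was -0.12 without Emo-6h replicate 3.

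Emodin-treated lungs had higher levels than DEX-treated lungs at 24 hours. In Emo-24h vs DEX-24h, 8 of 10 genes were up-regulated, against 3.82% of all genes. Cd5 had a log2 fold change of 3.04 ± 0.72 (edgeR, adjusted p = 0.0102), Cd8a 2.92 ± 0.68 (0.00838), Cd2 2.43 ± 0.51 (0.00455) and Cd3g 2.20 ± 0.56 (0.0153). Cd3d had 2.20 ± 0.49 (0.00649), Lck 2.19 ± 0.48 (0.00592), Cd3e 2.00 ± 0.51 (0.0156) and Cd4 1.45 ± 0.35 (0.0106). Cd247 (0.66 ± 0.38, 0.347) and Il7r (-0.05 ± 0.35, 0.967) did not pass. In FPKM, 6 genes (Cd3d, Cd2, Cd5, Lck, Cd4 and Cd8a) had every Emo-24h rat above every DEX-24h rat, as did 18.6% of all genes. For Cd3e the lowest Emo-24h rat, at 2.84 FPKM, lay just below the highest DEX-24h rat, at 2.87 FPKM. The count was 5 without DEX-24h replicate 2, DEX-24h replicate 3 or Emo-24h replicate 1, 4 without Emo-24h replicate 2 and 5 in a fit of these 6 libraries alone.

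Emo-24h was also set against SAP-24h. In Emo-24h vs SAP-24h, 2 of 10 were up-regulated, against 1.93% of all genes: Cd3e by 1.72 ± 0.51 on the log2 scale (edgeR, adjusted p = 0.0385) and Cd3d by 1.58 ± 0.48 (0.0421). The other 8 had values of 0.48 (Il7r) to 1.86 (Cd5), with adjusted p values of 0.0584 to 0.403. The call rested on single rats: the count was 7 without Emo-24h replicate 3, which had 2.84 FPKM of Cd3e, 0 without Emo-24h replicate 1, Emo-24h replicate 2 or SAP-24h replicate 1, and 1 without SAP-24h replicate 2 or 3. It was also 0 in a fit of these 6 libraries alone and with limma on log2(FPKM + 1), and 6 with DESeq2. The comparisons of Emo-24h with SAP-24h and with DEX-24h share the Emo-24h rats.

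Emo-24h and Sham-24h were not told apart. EdgeR, DESeq2 and limma called 0 of 10 in Emo-24h vs Sham-24h, with no T cell gene at an unadjusted p under 0.05, and edgeR called 0% of all genes, although 478 of them had an unadjusted p under 0.05. The median log2 fold change was -0.30. Il7r (-0.60) and Cd3d (-0.42) had the smallest p values, both adjusted to 1.00. The levels in Emo-24h spread widely, with 7.32 ± 4.21 FPKM of Cd3e (SD, n = 3) beside 8.89 ± 1.60 in Sham-24h. In Emo-24h vs Emo-6h, edgeR, DESeq2 and limma called 0, against 9.41% of all genes; 1 gene, Cd247, had an unadjusted p under 0.05 (-0.89, adjusted p = 0.0705).

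The drug effects relative to SAP were also compared between 6 and 24 hours. EdgeR, DESeq2 and limma called no T cell gene in either interaction. For emodin, edgeR called 1.68% of all genes. An unadjusted p under 0.05 was found for 6 T cell genes and for 3725 of the 15934 genes tested. The smallest adjusted p values of T cell genes were 0.106 for Cd4 (difference of log2 fold changes 1.31) and 0.115 for Cd3d (1.72). For DEX, edgeR called 0.138% of all genes. An unadjusted p under 0.05 was found for 0 T cell genes and for 2167 of the 15934 genes tested. The adjusted p values of the T cell genes were 0.672 or higher.

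The proportions among the T cell genes also differed between groups, as a description without a test. Cd3d per Cd3e in FPKM had group means of 0.868 to 1.10, with single rats at 0.662 to 1.22. Cd247 per Cd3e was 0.578 to 1.11 in 8 groups, but 1.53 ± 0.61 (SD, n = 3) in SAP-24h and 2.39 ± 0.91 in DEX-24h. Cd4 per Cd3e was 1.19 to 2.21 in 8 groups, 3.65 ± 2.09 in SAP-24h and 3.81 ± 2.08 in DEX-24h. By group mean both ratios were highest in SAP-24h and DEX-24h, where their divisor, Cd3e, was lowest. Single rats overlapped with other groups. Cd4 per Cd3e was as low as 1.47 in DEX-24h and as high as 2.73 in Emo-24h. Cd247 per Cd3e was as low as 1.16 in SAP-24h and as high as 1.31 in Emo-6h. Cd2 per Cd3e was lowest in the DEX groups and highest in SAP-24h: it was 0.460 ± 0.115 in DEX-6h and 0.624 ± 0.223 in DEX-24h, 1.45 ± 0.32 in SAP-24h and 0.716 to 1.03 in the other groups. Group means of Cd8a per Cd3e were also lowest in the DEX groups, at 0.667 ± 0.048 in DEX-6h and 0.794 ± 0.070 in DEX-24h. Those of the other groups were 0.957 to 1.79. Lck per Cd3e was lowest in DEX-6h, at 0.833 ± 0.094, but was 1.21 ± 0.33 in DEX-24h. Il7r per Cd3e was 0.551 ± 0.199 in DEX-24h and 0.268 ± 0.142 in SAP-24h, and at most 0.155 elsewhere, with the reads of Il7r as few as 9 per library.

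**Figure D3:**
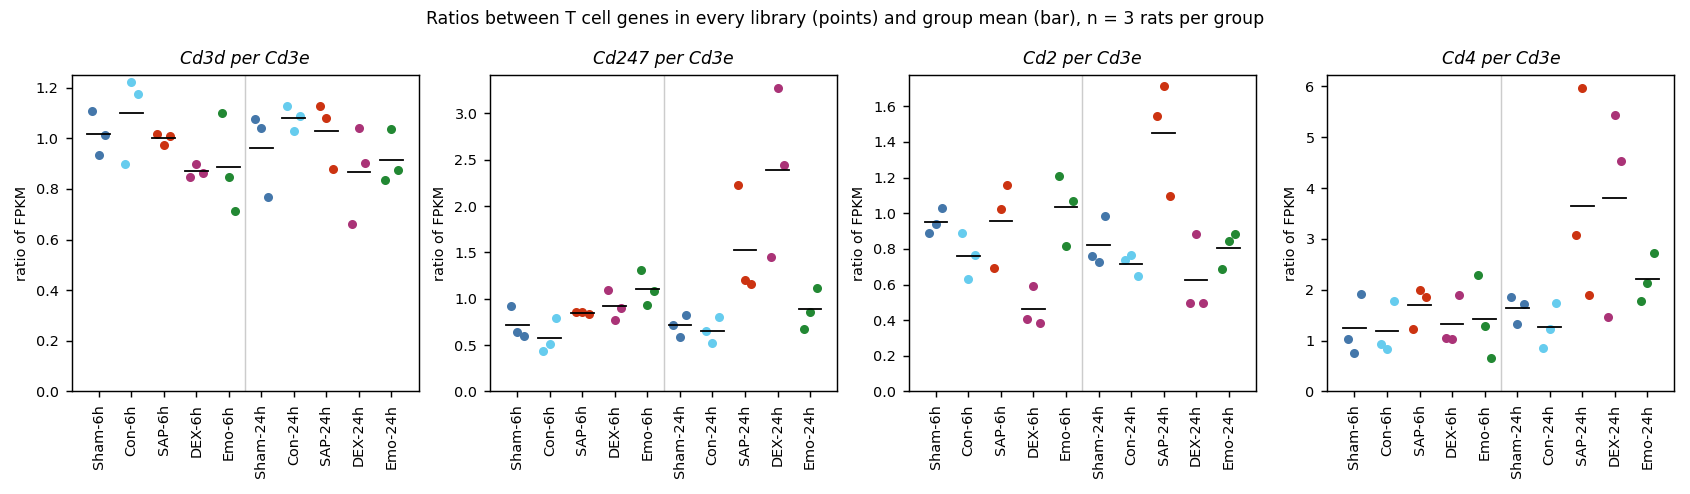
Ratios of FPKM within each library for Cd3d, Cd247, Cd2 and Cd4, each divided by Cd3e. Each point is 1 rat and each bar the mean of 3; Cd247 per Cd3e averages 1.53 in SAP-24h and 2.39 in DEX-24h, and the group means of Cd3d per Cd3e lie between 0.868 and 1.10, with single rats at 0.662 to 1.22.

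Cd4 and Cd8a were set beside genes of the other cells that carry them. Over 30 libraries Cd4 had an r of 0.776 with Cd3e, 0.645 with the macrophage receptor gene Csf1r and 0.509 with the macrophage gene Cd68. Of 12 macrophage and monocyte genes, 3 were up-regulated in SAP-24h vs Sham-24h, against 1.98% of all genes, and none was down-regulated, with summed levels of 249.47 to 262.03 FPKM in Sham-24h and 256.70 to 368.32 in SAP-24h. The part of macrophages in the level of Cd4 was not tested.

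Cd8a had an r of 0.958 with perforin (Prf1) and 0.957 with Nkg7, genes of cytotoxic T cells and natural killer cells, and of 0.915 with Cd8b, the second chain of the CD8 of T cells. Cd8b had 0.926 with Cd3e and 0.826 with Prf1. In Emo-6h replicate 3, where Cd8a was 40.28 FPKM, Prf1 was 85.93, Nkg7 123.03 and Cd8b 4.94 FPKM. In Sham-6h replicate 2, with 31.23 FPKM of Cd8a, Prf1 was 62.41, Nkg7 64.53 and Cd8b 5.66 FPKM. Cd8b per Cd8a was 0.123 in the first of these libraries and 0.181 in the second, beside 0.109 to 0.411 over the 30 libraries, the lowest of which was Emo-24h replicate 2.

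**Figure D4:**
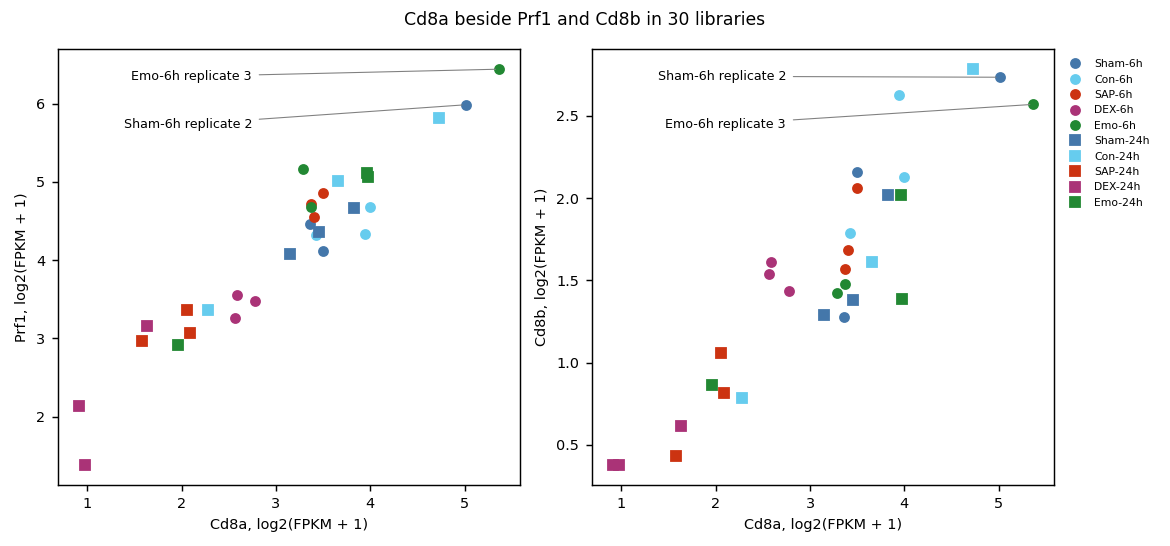
Cd8a against Prf1 (left) and Cd8b (right) in 30 libraries, both axes in log2(FPKM + 1), circles for 6 hours and squares for 24 hours. Emo-6h replicate 3 and Sham-6h replicate 2, labelled, have the highest Cd8a; DEX-24h lies at the lower left in both panels.

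Genes whose levels most resembled the T cell genes were found by the correlation of log2(FPKM + 1) with the mean standardised level of the 10 genes over 30 libraries. Among 12401 genes with a mean of at least 1 FPKM, whose median r was 0.118, the 10 highest included AC109737.1 (0.973), LOC100364854 (0.969), Ctsw (0.959), Lat (0.958), Skap1 (0.958), Cd6 (0.950), Cxcr3 (0.944), Cd96 (0.942) and Zap70 (0.941). Zap70 is a kinase and Lat and Skap1 are adaptors of T cell receptor signalling, Ctsw is a protease of cytotoxic lymphocytes, Cd6 and Cd96 are surface receptors and Cxcr3 is a chemokine receptor of activated T cells. With Spearman's rho, 8 of the 10 stayed among the 10 highest; with the 15 libraries at 6 hours alone 7 did, and with the 15 at 24 hours 8.

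Other genes of the T cell pathway were counted in fixed lists. Of 21 further genes of receptor signalling that could be tested, 5 were down-regulated in SAP-24h vs Sham-24h (3.01% of all genes), among them the adaptor genes Trat1 (log2 fold change -3.34, edgeR adjusted p = 0.0201) and Skap1 (-1.61, 0.0217) and Rasgrp1 (-1.30, 0.0255). In DEX-24h vs Sham-24h, 11 of the 21 were, against 3.16% of all genes, among them Skap1 (-2.71, 0.00110) and the phosphatase gene Ptpn22 (-1.88, 0.00376). In Emo-24h vs DEX-24h, 11 were up-regulated, against 3.82%, and in Emo-24h vs SAP-24h 2 were, against 1.93%. The median log2 fold change of the 21 was -0.73 in SAP-24h vs Sham-24h and -1.52 in DEX-24h vs Sham-24h, beside -0.03 and -0.01 for all genes. The antigen-binding chains of the mature receptor were not followed, since Trac, Trbc1, Trbc2, Trgc1 and Trdc matched no symbol of the table.

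Costimulatory and checkpoint receptors tune the receptor signal. In SAP-24h vs Sham-24h 6 of 15 were down-regulated, against 3.01% of all genes, with Cd96 (-1.43, edgeR adjusted p = 0.0141), Cd6 (-2.18, 0.0168), Cd40lg (-2.26, 0.0177) and Cd27 (-2.20, 0.0213). In DEX-24h vs Sham-24h 8 of 15 were, against 3.16%, with Cd96 (-2.40, 0.000627), Cd7 (-2.91, 0.000695), Cd27 (-2.96, 0.00551) and Havcr2 (-2.08, 0.00571). In Emo-24h vs DEX-24h 7 of 15 were up-regulated, against 3.82%. Of 15 transcription factors of T cells, 2 were down-regulated in SAP-24h vs Sham-24h, against the same 3.01%, Bcl11b (-2.04, 0.00626) and Tcf7 (-1.15, 0.00754), both needed for the T cell lineage. In DEX-24h vs Sham-24h 6 were down-regulated (3.16% of all genes), and in Emo-24h vs DEX-24h 8 were up-regulated (3.82%).

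Trafficking genes were mixed. In SAP-24h vs Sham-24h 4 of 13 were down-regulated, against 3.01% of all genes, among them the integrin gene Itgae (-1.36, edgeR adjusted p = 0.00445) and the chemokine receptor genes Ccr6 (-1.30, 0.0158) and Cxcr3 (-1.84, 0.0224), and 1 was up-regulated, against 1.98%, S1pr1 (1.07, 0.0109), which blood vessels also express. In DEX-24h vs Sham-24h 7 of 13 were down-regulated, against 3.16%, led by Ccr7 (-3.50 ± 0.49, 0.000220), the receptor that guides naive T cells into lymphoid tissue. Ccr7 was 3.35 to 5.55 FPKM in Sham-24h, 1.63 to 2.70 in SAP-24h, 2.36 to 7.23 in Emo-24h and 0.23 to 0.55 in DEX-24h. Of 14 genes of the interleukin 7 and common gamma chain pathway other than Il7r, 1 was up-regulated in SAP-24h vs Sham-24h, Il4r (1.40, 0.00159), against 1.98% of all genes, and 2 were down-regulated in DEX-24h vs Sham-24h, against 3.16%, Il21r (-2.47, 0.00137) and Il2rb (-2.03, 0.0305). In DEX-24h vs SAP-24h, 3 of these 14 were down-regulated, against 2.55% of all genes. So were 4 of the 21 signalling genes and 2 of the 13 trafficking genes. Of the costimulatory and checkpoint receptors 2 of 15 were, and of the transcription factors 0 of 15.

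**Figure D5:**
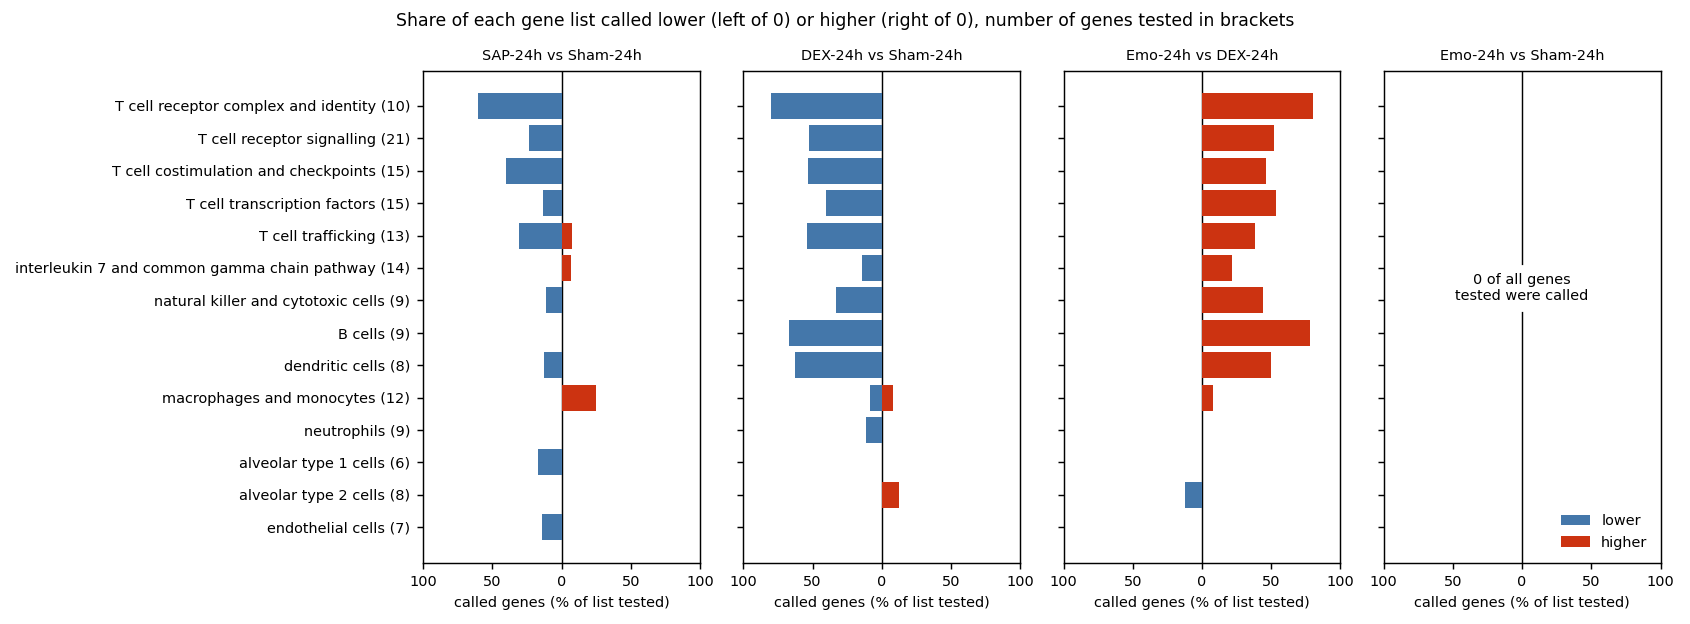
Share of each gene list that was called lower (left of 0) or higher (right of 0), in percent of its genes tested, in 4 comparisons at 24 hours. The T cell genes (6 and 8 of 10 lower) stand beside B cell genes (0 and 6 of 9 lower) in SAP-24h vs Sham-24h and DEX-24h vs Sham-24h; in Emo-24h vs Sham-24h 0% of all 15934 genes tested were called, so that panel is empty.

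Markers of other cells were counted in the same comparisons, where 3.01% of all genes were down-regulated in SAP-24h vs Sham-24h, 3.16% in DEX-24h vs Sham-24h and 2.55% in DEX-24h vs SAP-24h, and 3.82% were up-regulated in Emo-24h vs DEX-24h. The summed level of the 10 T cell genes was 70.80 to 101.03 FPKM in Sham-24h, 24.13 to 27.77 in SAP-24h, 29.82 to 101.12 in Emo-24h and 16.14 to 24.15 in DEX-24h. That of 11 natural killer and cytotoxic genes was 220.08 to 309.75 FPKM in Sham-24h, 102.66 to 113.28 in SAP-24h, 77.49 to 356.72 in Emo-24h and 23.19 to 97.58 in DEX-24h, with 1 of 9 tested down-regulated in SAP-24h vs Sham-24h and 3 of 9 in DEX-24h vs Sham-24h. Of 9 B cell genes, 0 were called in SAP-24h vs Sham-24h, where 8 had negative values, 6 were down-regulated in DEX-24h vs Sham-24h, 4 in DEX-24h vs SAP-24h, and 7 were up-regulated in Emo-24h vs DEX-24h. They had sums of 52.19 to 68.75 FPKM in Sham-24h, 33.51 to 55.93 in SAP-24h and 14.60 to 19.87 in DEX-24h. Of 8 dendritic cell genes, 1 was down-regulated in SAP-24h vs Sham-24h, 5 in DEX-24h vs Sham-24h and 3 in DEX-24h vs SAP-24h.

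Genes of lymph node stroma summed to 122.91 to 233.90 FPKM in Sham-24h, 71.18 to 81.46 in SAP-24h and 24.44 to 49.52 in DEX-24h, with 0 of 5 called in SAP-24h vs Sham-24h and 2 of 5, Ccl21 and Ccl19, down-regulated in DEX-24h vs Sham-24h, against 3.01% and 3.16% of all genes. Neutrophil genes summed to 411.46 to 9492.34 FPKM in Sham-24h and 4601.23 to 17738.40 in SAP-24h, and none of 9 passed the test in SAP-24h vs Sham-24h (median log2 fold change 1.69). In SAP-24h vs Con-24h, where Con-24h summed to 220.87 to 1241.95 FPKM, 8 of the 9 neutrophil genes were up-regulated (median log2 fold change 3.92), against 3.65% of all genes, and 2 of the 5 stroma genes were down-regulated, against 3.26%. Of 8 targets of glucocorticoids, 3 were up-regulated in DEX-24h vs Sham-24h, against 0.992% of all genes, with Sgk1 at 1.53 (edgeR adjusted p = 0.000147). The part of lymphoid tissue, of incoming neutrophils and of other lymphocytes in the values of the T cell genes was not tested.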

How the data were processed

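RNA of 30 lungs was sequenced as directional poly(A) libraries. The authors aligned paired reads to rat_ensembl_v6, an Ensembl release of the rat genome, by TopHat2, discarded multi-mapped reads and deposited raw counts of uniquely mapped reads per gene; the counting program and its use of strand are not given in the sources used here. The authors also deposited FPKM per gene. The submitters' processing notes name bcl2fastq, TopHat2 and edgeR. Mapping was not repeated.

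Counts were tested in R 4.3.3 with edgeR 4.0.16: filterByExpr (minimum count 10, minimum total 15), TMM scaling (factors 0.888 to 1.10) and 1 quasi-likelihood model of 10 groups, with 21 comparisons and 3 interactions, each adjusted over 15934 genes. SE is the log2 fold change divided by the root of F. DESeq2 1.42.0, limma 3.58.1 on log2(FPKM + 1) and log2(FPKM + 0.1), RLE scaling, no filter, no fold limit, an unadjusted p, the compared groups alone, a replicate block and each library left out were alternatives. On simulated data for SAP-24h vs Sham-24h, 35 of 100 genes changed 2-fold, 81 of 100 changed 4-fold and 3 of 15581 unchanged genes were called. Levels, ratios and correlations used FPKM, with Python 3.11.15. From each other list up to 4 genes with the smallest adjusted p were named. Some genes that these rules name are not reported here. For comparisons without a call the genes named were those with the smallest p. The members, lists and tests were chosen with earlier results of these data known. Libraries of a group came from separate rats, and same-numbered rats of 2 groups are different rats.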

Additional observations from a re-analysis of the deposited data

How the results depend on the processing

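The number of T cell genes called depended on the fit. In the compared groups alone it was 0 instead of 6 in SAP-24h vs Sham-24h, 0 instead of 8 in SAP-24h vs Con-24h, 0 instead of 2 in Emo-24h vs SAP-24h, 0 instead of 1 in DEX-6h vs Sham-6h, 5 instead of 8 in Emo-24h vs DEX-24h and 6 instead of 3 in SAP-24h vs SAP-6h; such fits estimate the spread from 6 rats. DESeq2 gave 6 in Emo-24h vs SAP-24h, 8 in SAP-24h vs SAP-6h, 2 in Emo-6h vs DEX-6h and 1 in DEX-24h vs SAP-24h. Limma on log2(FPKM + 1) gave 0 in Emo-24h vs SAP-24h and 5 in DEX-24h vs DEX-6h, and no filter gave 1 in Emo-24h vs SAP-24h. An unadjusted p gave 1 in DEX-6h vs SAP-6h and DEX-24h vs SAP-24h, 3 in DEX-6h vs Sham-6h and Emo-6h vs DEX-6h, 6 in Emo-24h vs SAP-24h, 9 in SAP-24h vs SAP-6h, and 5 and 6 in the interactions of SAP and emodin with time. RLE scaling and the absence of a fold limit left every count of T cell genes within 1.5 times. Counts of the fixed lists moved as well. With 1 library left out, 342 of these counts moved and 1494 stayed the same. Under other settings, 227 moved and 1915 stayed the same.

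With 1 library left out the counts ran from 1 to 5 in SAP-24h vs Sham-24h, 4 to 9 in SAP-24h vs Con-24h, 5 to 8 in DEX-24h vs Sham-24h, 4 to 8 in Emo-24h vs DEX-24h, 0 to 7 in Emo-24h vs SAP-24h, 0 to 3 in SAP-24h vs SAP-6h, 5 to 7 in DEX-24h vs DEX-6h, and 0 to 1 in DEX-6h vs Sham-6h, Sham-24h vs Con-24h and Emo-24h vs Emo-6h. With the replicate block the counts were 7 in SAP-24h vs Con-24h, 4 in SAP-24h vs SAP-6h, and otherwise those of the fit without it. Deviations of same-numbered libraries correlated at -0.363 to 0.359 (median -0.00648), and over 0.1 in all 3 pairs only in DEX-24h vs DEX-6h, where the block gave 8 as before.

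Signs turned only for log2 fold changes that were not called. With 1 library left out, Cd8a ran from -1.05 to 0.030 and Lck from -0.77 to 0.033 in SAP-6h vs Sham-6h and Cd247 from -0.29 to 0.19 in DEX-6h vs Sham-6h (above 0 without Sham-6h replicate 2), Cd3d from -0.76 to 0.0071 in Sham-6h vs Con-6h (above 0 without Con-6h replicate 2), Cd8a from -0.12 (without Emo-6h replicate 3) to 1.35 in Emo-6h vs SAP-6h, Cd247 from -0.070 (without SAP-24h replicate 2) to 0.47 in DEX-24h vs SAP-24h, and Il7r from -0.023 (without DEX-6h replicate 1) to 0.30 in DEX-24h vs DEX-6h. Il7r ran from -0.52 to 0.23 in SAP-24h vs Con-24h, above 0 without Con-24h replicate 3 (0.15) or SAP-24h replicate 1. In Emo-24h vs DEX-24h Il7r ran from -0.19 to 0.037, above 0 without DEX-24h replicate 1 (0.019) or Emo-24h replicate 2, and was 0.0097 and 0.023 with limma at pseudocounts of 1 and 0.1. Cd5 ran from -1.20 to 0.17 (without SAP-24h replicate 3) in the interaction of DEX with time and was 0.031 with limma on log2(FPKM + 1). The causes were not tested. Depth limits Cd5 and Il7r most, and with the compared groups alone Cd5 did not pass the filter in the comparisons of DEX-24h with SAP-24h and with Emo-24h, which left 9 genes. Of the correlations with the T cell genes, those of Skap1 (0.847), Cd96 (0.826) and Zap70 (0.796) moved by over 0.1 in the 15 libraries at 6 hours alone.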

Other observations

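Tbx21 and Foxp3, transcription factor genes of T cell classes, were chosen here after their values were seen. Tbx21, of type 1 helper and cytotoxic cells, was 1.97 to 3.48 FPKM in Sham-24h, 0.80 to 1.08 in SAP-24h, 0.99 to 5.42 in Emo-24h and 0.34 to 1.02 in DEX-24h. It was down-regulated in DEX-24h vs Sham-24h (log2 fold change -2.27 ± 0.60, edgeR adjusted p = 0.0215) and up-regulated in Emo-24h vs DEX-24h (2.64 ± 0.60, 0.00764) and Emo-24h vs SAP-24h (1.88 ± 0.58, 0.0468). Foxp3, of regulatory T cells, was 0.19 to 0.41 FPKM in Sham-24h, 0.11 to 0.33 in SAP-24h and 0.07 to 0.18 in DEX-24h, from 9 to 54 reads, and passed in Emo-24h vs DEX-24h (1.54 ± 0.48, 0.0456) but not in SAP-24h vs Sham-24h (-0.20 ± 0.46, 0.813).

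Ptcra, the pre-T cell receptor chain of thymocytes, had 0 to 1 reads in DEX-24h, 2 to 5 in SAP-24h, 3 to 6 in Sham-24h, 0 to 9 in Con-24h and 8 to 16 in Emo-24h, with a highest value of 42 reads in Emo-6h. Rag1 had 0 reads in all 3 DEX-24h libraries and 0 to 2 in SAP-24h, and Rag2 had 0 reads in all libraries of both groups and 0 to 1 in Con-24h. Cd1d1, of the same list and also expressed by other cells, averaged 10.7 FPKM in Sham-24h and 11.2 FPKM in DEX-24h (log2 fold change 0.11, edgeR adjusted p = 0.844). The list of 6 thymocyte genes summed to 9.32 to 12.74 FPKM in Sham-24h and 10.29 to 11.85 in DEX-24h, and most of these sums was Cd1d1.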
